A study of Mus musculus with 2 samples.

Results

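The subject is a set of 52 genes whose products act in the G2 and M phases of the cell cycle, out of the 27998 genes that the count tables list. The members were chosen by name from a list of genes of these phases, and each of the 52 symbols was found once in both tables. The study profiled single cells from eye organoids, which were made of mouse embryonic stem cells (ESCs) that carry a GFP knock-in at one Rax allele. It compared culture day 4, the eye field stage, with day 6, when optic vesicles start to bud. Each day was 1 library made with the 10x Genomics 3′ v2 kit, for which cells of 3 experiments were pooled, so the days were set side by side without a test and every 95% interval covers counting error only. The knock-in and the culture were common to both days, and the organoids hold other cells besides the labelled retina progenitors.

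A dividing cell copies its DNA in S phase, checks it in G2 and parts the chromosomes in M phase. Cyclin-dependent kinase 1 drives the entry into mitosis, kinetochores and the spindle align the chromosomes, and the anaphase promoting complex then marks securin and cyclin B for destruction so that the cell can exit. The transcripts of most of these factors build up late in the cycle and are lost after division. They are under the control of the DREAM, B-Myb and FoxM1 complexes, which act through a promoter element known as the cell cycle homology region (CHR). The CCAAT box, the element of the factor NF-Y, is also common in such promoters. Neural progenitors of the early optic vesicle are a rapidly dividing epithelium, in which nuclei move to the apical side to divide.

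These 2 elements were looked for in the promoters of the members, in the RefSeq table for the mouse build GRCm38.p6 that holds 250 bases before and 50 after each gene start. The table held promoters for 46 of the 52 members, and for Tpx2, Smc4, Aurkb, Cdc25c, Dlgap5 and Cdca2 none was used here. The letters TTTGAA of the CHR, on either strand, stood in 34 of the 51 member promoters (66.7%), against 5878 of all 32851 promoters (17.9%). In the bases before the start alone the shares were 41.2% and 16.0%. The letters CCAAT stood in 38 of 51 (74.5%), against 37.4% of all promoters, and both stood in 27 (52.9%), against 6.95%. Counted by gene, 71.7% of the 46 members held TTTGAA, while 55.9% of 34 other mitosis genes, 19.4% of 31 S phase genes and 14.0% of the 5219 genes expressed in these libraries did. CCAAT was held by 76.1%, 70.6%, 71.0% and 43.6% of the same groups. Of the 33 members with TTTGAA, 26 had a match that began within 50 bases of the start. The share of other promoters with a match there was not counted. A match is a description of these letters and not a bound site.

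Stretches of 150 bases before the start are shown for the 5 members with TTTGAA there and high ratios in the cells richest in the other members, described further on, where Cdc20 passed the limit on day 6 only. They are Ube2c at chr2:164769779-164769928 (+ strand), Ckap2l at chr2:129297213-129297362 (- strand), Cdk1 at chr10:69352913-69353062 (- strand), Kif2c at chr4:117178773-117178922 (- strand) and Cdc20 at chr4:118437344-118437493 (- strand). Each reads 5′ to 3′ in the direction of its gene and ends at the base before the start, with the letters of TTTGAA and CCAAT, or of their reverse strand TTCAAA and ATTGG, in capitals.
Ube2c: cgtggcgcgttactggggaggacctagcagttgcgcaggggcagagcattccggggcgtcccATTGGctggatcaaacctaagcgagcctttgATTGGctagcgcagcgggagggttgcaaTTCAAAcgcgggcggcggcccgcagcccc
Ckap2l: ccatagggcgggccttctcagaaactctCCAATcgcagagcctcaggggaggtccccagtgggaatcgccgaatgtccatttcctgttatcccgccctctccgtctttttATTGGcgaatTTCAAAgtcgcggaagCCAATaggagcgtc
Cdk1: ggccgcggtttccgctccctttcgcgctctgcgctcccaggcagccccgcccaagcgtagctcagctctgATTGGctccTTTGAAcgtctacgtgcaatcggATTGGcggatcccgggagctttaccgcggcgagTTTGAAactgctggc
Kif2c: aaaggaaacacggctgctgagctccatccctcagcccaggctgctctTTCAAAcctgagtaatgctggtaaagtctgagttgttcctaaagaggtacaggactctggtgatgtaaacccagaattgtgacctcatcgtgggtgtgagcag
Cdc20: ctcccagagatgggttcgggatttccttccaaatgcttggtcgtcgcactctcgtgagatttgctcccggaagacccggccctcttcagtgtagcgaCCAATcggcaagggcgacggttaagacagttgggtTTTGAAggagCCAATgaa
The TTTGAA match of Ube2c, Ckap2l and Cdc20 began 29, 30 and 18 bases before the start, and each had a CCAAT match within 57 bases of the start. Cdk1 held 2 TTTGAA and 2 CCAAT matches, whereas the Kif2c stretch held its 1 TTTGAA match 103 bases before the start and no CCAAT.

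After the stated filter 8147 day 4 cells (89.4% of the barcodes) and 6641 day 6 cells (89.2%) were kept, with 98643495 and 87800738 unique molecular identifiers (UMIs) and medians of 11216 and 12514 UMIs per cell. A level is given as CPM, the UMIs of a gene per 1000000 UMIs of the summed cells. The kit counts 1 tag per transcript end, so levels can be set side by side between genes without a length. Of the cell barcodes, 91 occurred in both libraries, 78 of them among kept cells. In summed cells, fewer cells in mitosis and less RNA per mitotic cell cannot be told apart. Free RNA was not measured, and no group of cells free of these transcripts was found that could give its level.

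All 52 members were expressed on both days, and 43 of them had a ratio above 1 on day 6, as did 4372 of 6699 genes. The level of Gas2l3, which links microtubules to actin in the midbody, was the lowest, at 10.6 CPM on day 4 and 10.7 on day 6. That of Hmgb2, a DNA-bending chromatin protein, was the highest, at 1270 CPM on day 4 and 1354 on day 6. Hmgb2 alone gave 19.5% of the members' UMIs on day 4. The CDK-binding subunits Cks1b and Cks2 stood at 554 and 522 CPM on day 4 and at 531 and 476 on day 6. Tubb4b, a beta-tubulin, stood at 412 CPM on day 4 and 467 on day 6. Ube2c, the ubiquitin-conjugating enzyme of the anaphase promoting complex, stood at 293 and 306 CPM, and Birc5, the survivin subunit of the chromosomal passenger complex, at 229 and 240. Top2a, which untangles sister chromatids, stood at 214 CPM on day 4 and 243 on day 6, and Cenpa, the histone of the centromere, at 195 and 251. Hmgb2 and Tubb4b belong to multigene families, and reads that match more than 1 copy could have been left out or assigned to another member by the counting.

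Between the days the members moved little. The limit for a call was a 1.5-fold ratio in either direction, with an interval that left out 1, among genes with a mean of at least 10 CPM. On day 6, 4 of the 52 members were higher by this rule, against 13.3% of all 6699 genes, and 1 was lower, against 6.28%. The share of members past the limit in either direction was thus below that of all genes. The median log2 ratio of day 6 over day 4 was 0.25 for the members and 0.14 for all genes. The medians of the members' lower and upper bounds, which are no interval of this median, were 0.19 and 0.31. The interval of the ratio lay above 1 for 41 members, below 1 for 8 and on both sides for 3. Such intervals were not counted over all genes. A member with an interval above 1 can still lie below the median of all genes, as Birc5 and Ube2c did. Centring on the median of all genes divides every ratio by the same factor. The ratios of the 4 higher members were then 1.36 to 1.44, under the limit, with 0 members higher against 8.79% of all genes and 1 lower against 8.75%.

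Aurkb, the kinase of the chromosomal passenger complex, was at 37.6 CPM (36.4 to 38.9) on day 4 and 59.6 (58.0 to 61.2) on day 6, a ratio of 1.58 (1.52 to 1.65). Ndc80, which grips microtubules at the kinetochore, went from 18.1 CPM on day 4 to 28.6 on day 6, a ratio of 1.57 (1.48 to 1.67). For Cdc25c, a phosphatase that activates Cdk1, 18.4 and 28.6 CPM gave 1.56 (1.46 to 1.65). For Smc4, a subunit of condensin, 153 and 230 CPM gave 1.501 (1.47 to 1.53). All 4 were higher in the day 6 library, but Smc4 was at the limit itself.
G2e3, a ubiquitin ligase named for its expression in G2 and M, went the other way, with 51.6 CPM (50.2 to 53.0) on day 4 and 25.4 (24.3 to 26.5) on day 6, a ratio of 0.492 (0.468 to 0.518). It kept this call under the 9 other ways of processing tried, among which dropping the minimum level cannot change the ratio. No other member fell below a ratio of 0.747, that of Anln, the cleavage furrow scaffold anillin.

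By role, the 6 kinetochore and checkpoint genes had a median log2 day ratio of 0.39 and all 6 intervals above 1. The 6 passenger and centromere genes had a median of 0.28, also with all 6 intervals above 1. Such intervals were not counted over all genes, whose median was 0.14. Birc5 and Hjurp of this role and Bub1 of the kinetochore genes lay below that median. The 13 spindle genes had a median of 0.22, with Kif11, the motor that pushes spindle poles apart, below 1 at 0.846. The 9 genes of mitotic entry had a median of 0.34 but split, with 5 intervals above 1 and 4 below. The 5 cytokinesis genes had a median of 0.02, with 2 intervals above 1 and 1 below. The 11 genes of chromosomes and the nuclear envelope had a median of 0.18, and the pair of anaphase promoting complex partners, Ube2c and Cdc20, stood at ratios of 1.05 and 1.21.

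Of 46 mitosis genes that are no members, 4 were higher, 1 was lower and the median log2 ratio was 0.21. The largest ratio was 2.86, for Cdc25b, a phosphatase of the same family as Cdc25c. The lowest was 0.602, for Mybl2, which encodes B-Myb. Of 41 S phase genes at this level, 5 were higher and 1 lower, with a median of 0.34.

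**Figure D1:**
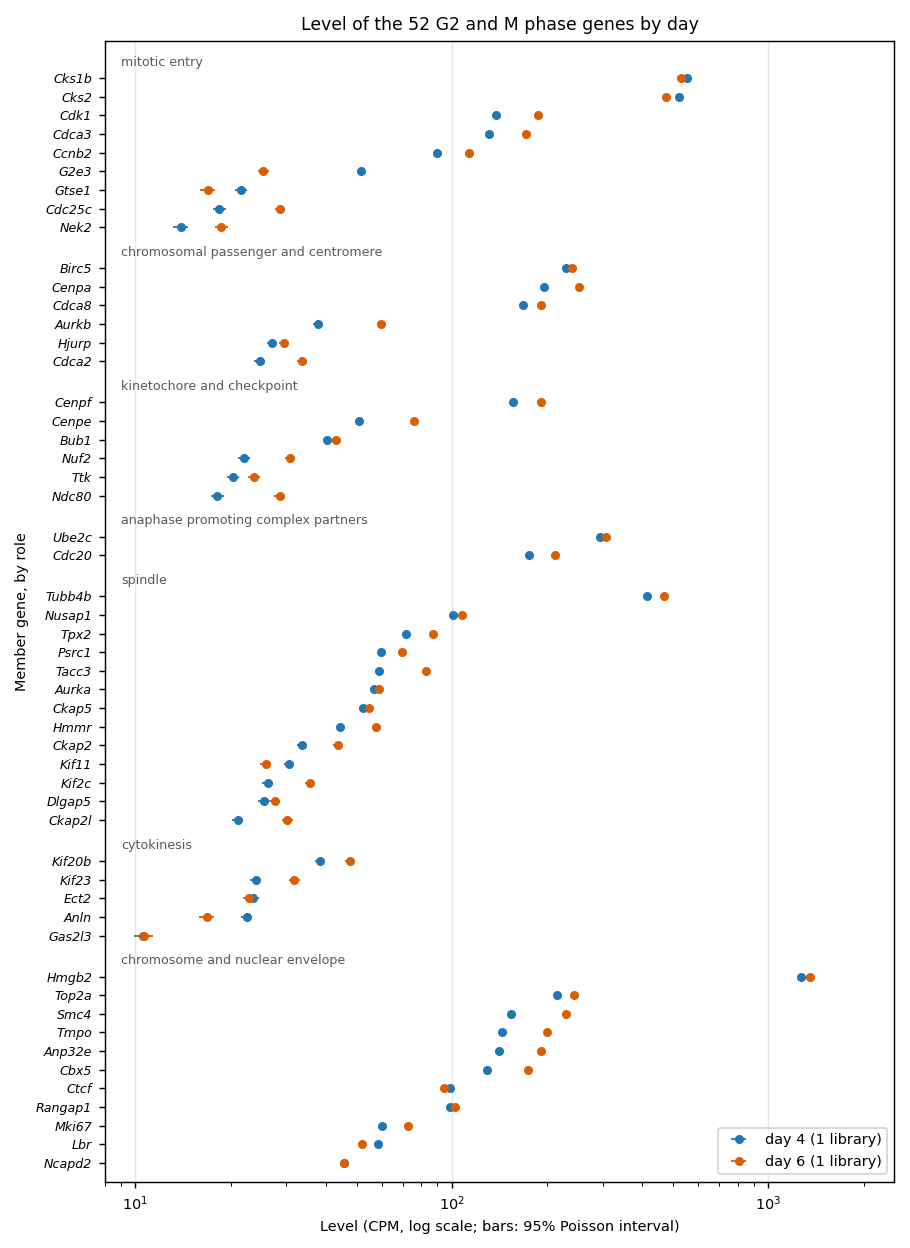
Level of each member in CPM on a log axis, by role, with the day 4 library in blue and the day 6 library in orange and 95% Poisson intervals as bars. Most pairs of points lie close together with day 6 slightly to the right, whereas G2e3 lies at 51.6 CPM on day 4 and 25.4 on day 6.

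The summed UMIs of the members differed more between days in their spread over cells than in their middle. Each cell with at least 5000 UMIs was thinned to 5000, which left 7965 cells on day 4 and 6641 on day 6. On day 4 the members gave a median of 31 UMIs per cell (SD 12.3, 5th percentile 11, 95th percentile 52). On day 6 the median was 33 (SD 15.9), with the same 5th percentile of 11 and a 95th percentile of 64. The variance was 4.83 times the mean on day 4 and 7.30 times on day 6, so the sums varied far more than counting alone would give, and they varied more on day 6.

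A cell was called high at 50 member UMIs or more, 1% of its UMIs. High cells were 613 of 7965 (7.70%, 95% Clopper-Pearson interval 7.12 to 8.30) on day 4 and 1199 of 6641 (18.1%, 17.1 to 19.0) on day 6. The days parted below this cut as well, with 75th percentiles of 39 and 44 UMIs, but little at the low end. At a cut of 25 UMIs the shares were 72.2% and 72.3%, and at a cut of 75 they were 0.163% and 1.60%. Without thinning, 6.06% and 16.8% of the cells had at least 1% of their UMIs in the members. The sums form a range with no gap at the cut, and 830 cells on day 4 and 863 on day 6 lay between 45 and 54 UMIs. At the low end, 4.29% and 3.66% of the cells had under 10 member UMIs. Of these, 106 of 342 on day 4 and 66 of 243 on day 6 had under 0.5% mitochondrial counts. All cells under that limit, 339 and 210, had summed member levels of 0.701 and 0.595 times those of the other cells, and the part of this in the low end was not tested.

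Depth moved with the high share even after thinning. High cells had a median of 13136 UMIs before thinning on day 4, against 11249 in the other cells, and 15347 against 12029 on day 6. Among cells with 5000 to 10000 UMIs the high share was 5.77% (4.97 to 6.66) on day 4 and 10.1% (8.75 to 11.5) on day 6. Among cells with 15000 to 20000 UMIs it was 12.0% (10.3 to 13.9) and 27.8% (25.4 to 30.2). Between 20000 and 26000 UMIs it was 7.72% on day 4 and 34.2% on day 6. In each of the 4 depth windows the day 6 share was above that of day 4. The windows split cells of the same 2 libraries, so their intervals hold no error between libraries. Weighted to the depths of day 4 the day 6 share was 16.7%.

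**Figure D2:**
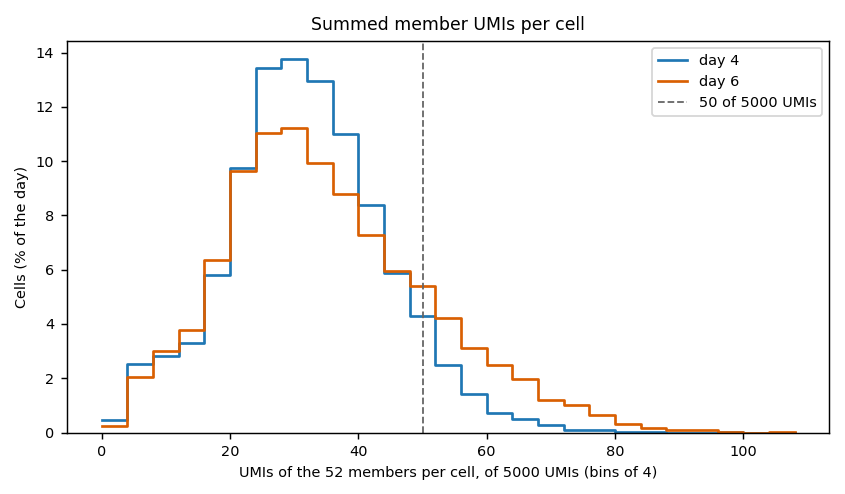
Share of the cells of each day, in percent, by the UMIs of the 52 members after thinning to 5000 UMIs per cell, in bins of 4, with the cut of 50 dashed. The curves lie close together up to 24 UMIs, and the day 4 curve has the higher peak. The medians are 31 and 33. The day 6 curve has the longer right tail, with 18.1% of cells past the cut against 7.70%.

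The high cells were checked against genes that are no members. Ccnb1, the cyclin partner of Cdk1, was at 397 CPM in the high cells and 161 in the others on day 4 and at 410 and 119 on day 6, ratios of 2.46 (2.31 to 2.62) and 3.44 (3.27 to 3.63). The mitotic kinase Plk1 had ratios of 2.49 (2.21 to 2.79) and 3.26 (2.96 to 3.59). Of the other mitosis genes 7 of 45 were at least 2-fold higher on day 4 and 17 of 46 on day 6. Over all genes, with the members that define the high cells included, 43 of 6513 and 70 of 6853 were. Of the S phase genes 0 of 40 and 0 of 41 were. Ung, a DNA repair gene of the G1 to S transition, was at 34.9 CPM in the high cells and 104 in the others on day 4, and at 24.0 and 122 on day 6. Ung was the lowest of the S phase list, of which 1 of 40 genes was at least 2-fold lower on day 4 and 3 of 41 on day 6, with median log2 ratios of -0.20 and -0.29. Tyms, the thymidylate synthase, stood above 1 on both days, at 1.27 and 1.10.

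How closely each member kept to the same cells was measured by sorting the cells by the sum of the other 51 members and comparing the highest 25% with the rest. A member was called tied to the high cells at a ratio of at least 2 with an interval above 1. This held for 12 members on day 4 and 22 on day 6, the 12 of day 4 being among the 22. Over all genes, with cells sorted by the sum of all members and the members included, 0.463% passed on day 4 and 1.07% on day 6. The median ratio over the members was 1.60 on day 4 and 1.91 on day 6, and 30 members were tied on neither day.

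Nusap1, which binds spindle microtubules near chromosomes, had the highest ratio on both days. It stood at 184 CPM in the highest 25% and 69.4 in the rest on day 4, and at 228 and 55.5 on day 6, ratios of 2.66 (2.49 to 2.84) and 4.12 (3.84 to 4.42). Ube2c stood at 508 and 192 CPM on day 4 and 630 and 156 on day 6, ratios of 2.65 and 4.04. In both cases the level in the rest of the cells was lower on day 6 and that in the highest 25% was higher.
The spindle pole kinase Aurka had ratios of 2.34 and 3.55. The spindle protein Ckap2l had 2.43 and 3.23, and Cenpf, a large protein of the kinetochore, 2.09 and 3.32. Cdk1 itself had ratios of 2.27 and 2.81.
Aurkb was 1 of 3 members with a lower ratio on day 6, at 2.54 (2.28 to 2.83) on day 4 and 2.47 (2.24 to 2.72) on day 6. Hmmr, a spindle pole protein, had 2.13 and 2.84, the kinetochore motor Cenpe 2.22 and 2.56, and the microtubule depolymerase Kif2c 2.14 and 2.51.

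At the other end stood mostly proteins of chromatin and the nuclear envelope. Cbx5, the heterochromatin protein HP1 alpha, had ratios of 1.06 (0.990 to 1.12) on day 4 and 1.12 (1.06 to 1.19) on day 6. Tmpo, a protein of the nuclear lamina, had 1.07 and 1.18, the chromatin loop factor Ctcf 1.09 and 1.24, the condensin subunit Ncapd2 1.19 and 1.16, and Cks1b 1.12 and 1.30. None of the 11 chromosome and nuclear envelope genes was tied on either day, although Top2a came close on day 6 at 1.999. Of the 13 spindle genes 6 were tied on both days. Cytokinesis genes were tied in 0 of 5 cases on day 4 and 3 of 5 on day 6, and kinetochore genes in 2 of 6 and 4 of 6. Of the members tied on both days that have a promoter in the table, 7 of 9 held TTTGAA, as did 19 of the 28 tied on neither.

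Within the highest 25% of cells, no member differed by 1.5-fold with an interval that left out 1 between cells with a low and a high sum of S phase genes, on either day. The intervals were above 1 for 17 members on day 4 and 10 on day 6, and below 1 for 7 and 3. They were not counted over all genes. The intervals of 8 members lay above 1 on both days, with Top2a at 1.27 and 1.25, Ube2c at 1.26 and 1.26 and Nusap1 at 1.24 and 1.22. Those of Hmgb2, at 0.919 and 0.866, and Tacc3, a spindle protein, at 0.800 and 0.852, lay below 1 on both.

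**Figure D3:**
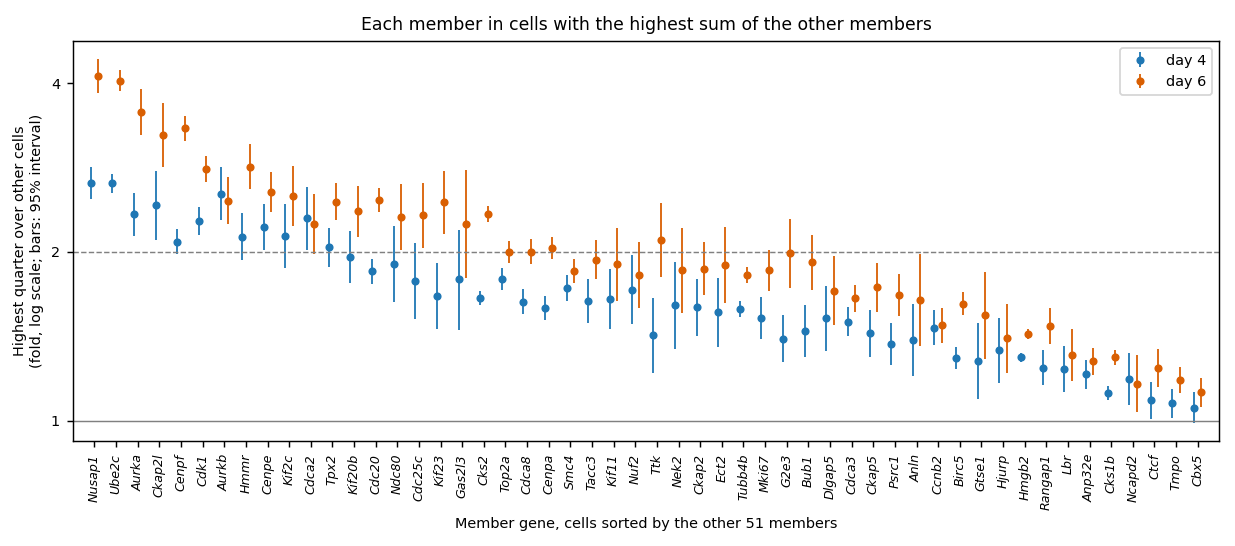
Ratio of each member between the 25% of cells with the highest sum of the other 51 members and the rest, on a log axis, for day 4 in blue and day 6 in orange with 95% intervals. Nusap1 and Ube2c lead, at 4.12 and 4.04 on day 6, and the line at 2 parts the tied members from the others.

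The members were then followed across cells grouped by raw UMIs of 6 marker genes, each group set against the cells of the same day that reached no threshold. Dppa5a, a marker of pluripotent cells, put 1061 cells in a group on day 4 and 430 on day 6 at 10 or more UMIs. Fgf5, a gene of the epiblast, gave 3236 cells on day 4 at 2 or more. On day 6 Six6, an optic vesicle transcription factor, gave 1977 cells and Wnt8b, a ligand of the dorsal forebrain, 356, both at 2 or more. Col4a1, a basement membrane collagen, gave 86 cells on day 6 at 5 or more. Groups under 50 cells are not described, which leaves out Sox10 with 25 cells and Fgf5 with 38 on day 6, 10 of the latter high. On day 4 it leaves out Six6 with 20, Col4a1 with 15, Wnt8b with 1 and Sox10 with 0. Cells over several thresholds, 549 on day 4 and 157 on day 6, were in no group. A rule for neurons took 32.2% of the day 4 cells and was not used.

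Other markers went with these groups. The Dppa5a groups held Zfp42 at 250 CPM on day 4 and 298 on day 6, against 12.0 and 2.79 in the cells of no group. The Six6 group held Rax at 175 CPM against 74.4, and the Wnt8b group Rspo3 at 79.3 against 9.75 and Pax3 at 18.03 against 8.04. The dorsal genes Wnt1 and En1 were not higher in the Wnt8b group, at 7.36 against 9.41 CPM and 1.66 against 2.81. The Col4a1 group held Sparc at 11729 CPM against 127 and the endoderm factors Gata6 and Sox17 at 191 and 173 against 0.247 and 0.315, so its cells were primitive endoderm-like. The cells of no group also held these markers. Of the 6 groups 5 had deeper cells than the cells of no group of their day, with medians from 10562 to 14644 UMIs per cell against 9803 on day 4 and 11774 on day 6. The Col4a1 group had shallower ones, with a median of 9682.

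On day 6 the Six6 and Wnt8b groups had the most high cells among the groups of at least 50 cells. In the Six6 group 24.8% of the cells were high (22.9 to 26.8) and in the Wnt8b group 23.6% (19.3 to 28.4), against 14.6% (13.5 to 15.8) of the cells of no group. Weighted to the depths of each group, the share in the cells of no group was 16.3% for Six6 and 18.5% for Wnt8b. No interval was computed for these weighted shares, and that for Wnt8b was close to the lower end of its group's interval. The summed level was 8053 CPM in the Six6 group, 7804 in the Wnt8b group and 7080 in the cells of no group, ratios of 1.14 (1.13 to 1.14) and 1.10 (1.09 to 1.11). Weighted for depth, the ratios were 1.11 and 1.04.

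No single member was called in either group, where 1.01% of all genes were higher and 1.35% lower in the Six6 group and 1.36% were higher and 1.3% lower in the Wnt8b group. In the Six6 group 46 of 52 members stood above 1, against 61.2% of all genes, with a median log2 ratio of 0.17 against 0.04. Other cell cycle genes were alike there, with 42 of 46 other mitosis genes above 1 (median 0.16) and 36 of 41 S phase genes (median 0.14). Ttk, the checkpoint kinase Mps1, had the largest ratio there at 1.40 (1.27 to 1.54), followed by Nusap1 at 1.40 and Ndc80 at 1.32. In the Wnt8b group 44 of 51 members stood above 1, against 60.1% of all genes, with a median of 0.12 against 0.04. The other lists parted there, with 35 of 45 other mitosis genes above 1 (median 0.09) and 19 of 41 S phase genes (median -0.01). Among the members Anln had the largest change, at a ratio of 0.735 (0.556 to 0.955), followed by Ube2c at 1.34 and Cenpf at 1.29.

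The Fgf5 group of day 4 was close to the cells of no group. Its high share was 7.63% (6.73 to 8.60) against 6.97% (6.11 to 7.92), and 7.64% in the cells of no group once weighted to its depths. The summed ratio was 1.08, or 1.03 with weighting for depth, and 0 members were called, where 0.109% of all genes were higher and 0.512% lower. The largest changes were those of Ect2, the exchange factor that starts the cleavage furrow, at 1.22 (1.11 to 1.35), Kif11 at 1.21 and Cdk1 at 1.204. Under 10 member UMIs were found in 1.06% of its cells (0.737 to 1.48), against 5.25% of the cells of no group and 3.41% of these once weighted to its depths.

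The Dppa5a groups had a wide range of sums on both days. On day 4 10.4% of their cells (8.65 to 12.5) had under 10 member UMIs and 8.91% (7.25 to 10.8) were high, against 5.25% and 6.97% of the cells of no group. On day 6 15.1% (11.9 to 18.9) had under 10 and 13.7% (10.6 to 17.3) were high, against 2.60% and 14.6%. Weighted to the depths of the groups, the cells of no group had 4.77% under 10 and 7.21% high on day 4. On day 6 they had 2.03% under 10 and 17.8% high, the latter close to the upper end of the interval of the group. No interval was computed for these weighted shares. The summed level was 5916 CPM on day 4 and 6286 on day 6, ratios of 0.936 (0.928 to 0.944) and 0.888 (0.879 to 0.897) to the cells of no group. Without mitochondrial and ribosomal protein genes in the totals the ratios were 1.01 and 0.993, so the direction on day 4 turned. The median log2 ratio of the members on day 4 was 0.04, of the other sign than the sum, and that of all genes was -0.21. On day 6 the medians were -0.14 and -0.26.

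Single members moved apart in these cells. On day 4 3 of 51 members were higher, against 9.23% of all genes, and 5 were lower, against 18%. On day 6 4 were higher, against 12.8%, and 8 were lower, against 29.1%, so neither share exceeded that of all genes. Of the higher members 2 were called on both days, 66.7% of those of day 4 and 50% of those of day 6, against 84.8% and 60.2% for all genes. Of the lower ones 4 were, 80% and 50%, against 81.9% and 53.3%.
The higher pair was of the cleavage furrow. Ect2 was at 34.7 CPM in the group and 18.8 in the cells of no group on day 4 and at 36.2 and 21.3 on day 6, ratios of 1.85 (1.63 to 2.09) and 1.70 (1.46 to 1.97). Anln was at 32.7 and 18.1 CPM on day 4 and at 30.9 and 15.3 on day 6, ratios of 1.81 (1.59 to 2.06) and 2.02 (1.71 to 2.38).
The 4 lower in common were Cbx5, Tmpo, Anp32e and Cks1b. Cbx5 had ratios of 0.547 (0.508 to 0.588) and 0.3496 (0.315 to 0.387), and Tmpo of 0.547 and 0.430. Anp32e, a chaperone of the histone variant H2A.Z, had 0.587 and 0.505, and Cks1b 0.664 and 0.588. By role, the 11 chromosome and nuclear envelope genes had median log2 ratios of -0.21 and -0.39, and the 13 spindle genes 0.21 and 0.16.
The S phase genes were lower than the members in these cells. Of 40 tested, 14 were lower and 0 higher on day 4 with a median of -0.52, and 24 lower and 0 higher on day 6 with a median of -0.73. The other mitosis genes had medians of -0.13 on day 4, of the other sign than that of the members, and -0.25 on day 6.

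**Figure D4:**
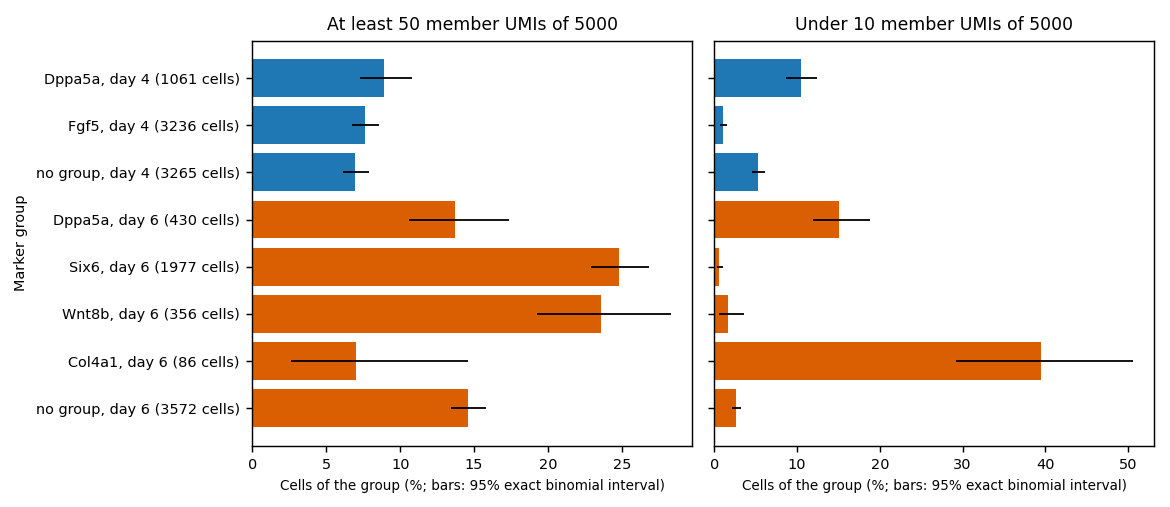
Share of the cells of each marker group with at least 50 member UMIs of 5000 (left) and under 10 (right), in percent with exact binomial 95% intervals, day 4 in blue and day 6 in orange. Among the groups shown for day 6 Six6 and Wnt8b have the most high cells, at 24.8% and 23.6%, and the Col4a1 group the most cells under 10, at 39.5%.

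The Col4a1 group of day 6 held far less of the members. Its summed level was 3893 CPM (3769 to 4020), against 7080 in the cells of no group, a ratio of 0.550 (0.532 to 0.568), and 0.564 with weighting for depth. Under 10 member UMIs were found in 39.5% of its 86 cells (29.2 to 50.7), and 6 cells, 6.98% (2.60 to 14.6), were high. Its median mitochondrial share was 4.70%, against 2.47% in the cells of no group, and the part of this in the result was not tested. With the thresholds of all 6 markers lowered together, that of Col4a1 to 2 UMIs, the group had 133 cells and the ratio was 0.925. The cells of no group changed with it, to 7021 CPM.

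Of the 52 members 30 were lower in this group, against 21.4% of all genes, and 3 were higher, against 30.9%. The median log2 ratio was -0.69 for the members and 0.09 for all genes. Hmgb2 was at 394 CPM (355 to 436) in the group and 1332 in the cells of no group, a ratio of 0.296 (0.267 to 0.327). Nusap1 was at 29.3 and 93.7 CPM, a ratio of 0.313 (0.208 to 0.453), and Cdc20, the activator of the anaphase promoting complex, at 68.1 and 195, a ratio of 0.349 (0.269 to 0.445). All 3 had intervals well apart from those of the cells of no group.
The 3 higher members were all of the 5 cytokinesis genes. Gas2l3 was at 18.9 and 9.91 CPM, a ratio of 1.90 (1.12 to 3.04), Anln at 26.2 and 15.3, a ratio of 1.71 (1.10 to 2.55), and Kif23, the motor of the central spindle, at 44.0 and 29.0, a ratio of 1.52 (1.09 to 2.06). Kif20b, the other motor of that role, was lower at 0.524, and Ect2 was not called. Among 41 S phase genes, 31 were called lower and 0 higher (median log2 ratio -0.87), so the drop was not of G2 and M genes alone.

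**Figure D5:**
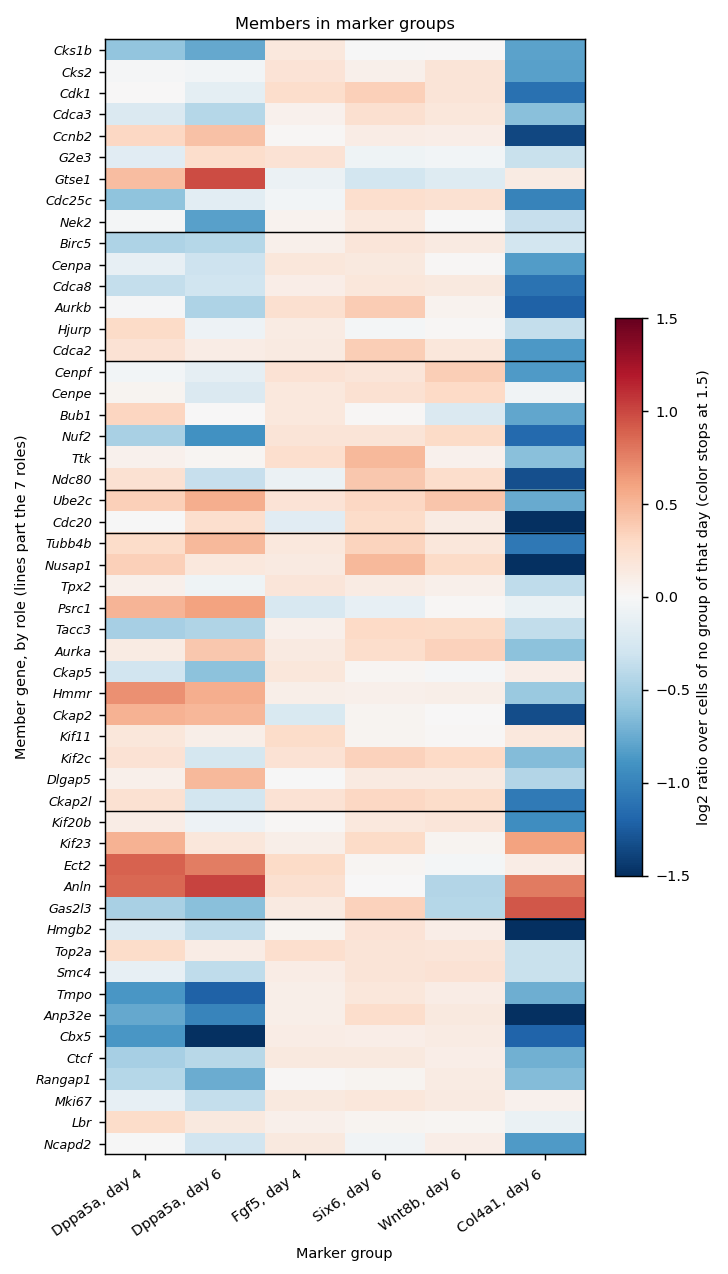
Log2 ratio of each member in 6 marker groups over the cells of no group of the same day, red higher and blue lower, with lines between the roles. The Col4a1 column is blue but for a few genes such as Anln, Gas2l3 and Kif23, the Dppa5a columns are blue for Cbx5 and Tmpo and red for Anln and Ect2, and the Fgf5, Six6 and Wnt8b columns are pale.

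Groups were also compared directly. The Dppa5a group of day 6 over that of day 4 had a summed ratio of 1.06 (1.05 to 1.08). Of 51 members 1 was higher, against 5.79% of all genes, and 0 were lower, against 2.51%. The 1 higher was Cdc25c, at 24.4 CPM (20.7 to 28.7) on day 6 and 13.2 (11.2 to 15.4) on day 4.
The Six6 group of day 6 over the Fgf5 group of day 4 had a summed ratio of 1.18 (1.17 to 1.18). Of 52 members 11 were higher, against 17.1% of all genes, and 1 was lower, against 8.1%. Ndc80 led at 34.6 CPM on day 6 and 17.2 on day 4, a ratio of 2.01 (1.82 to 2.21), before Aurkb at 1.79, and G2e3 was lower at 0.425 (0.390 to 0.464).
On day 4 the Dppa5a group over the Fgf5 group gave 5 higher, against 9.2% of all genes, and 6 lower, against 21.4%, with a summed ratio of 0.864. Cbx5, Tmpo and Anp32e had the largest changes, at 0.508, 0.514 and 0.551. These comparisons use cells of the same libraries as those above and are not independent of them.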

How the data were processed

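Single cells of 2 libraries were used, 1 per day. The authors deposited raw counts of UMIs for each gene in each barcode, aligned to mm10 and not normalised. Tools listed in the submitters' processing notes are Seurat 2.3.4 and Cell Ranger 2.0.1; later versions stand in the methods. The deposited barcodes, 9114 and 7446, are fewer than the cells that the study states. Cells with 500 to 5000 genes, 500 to 26000 UMIs, at most 10% mitochondrial, at least 20% ribosomal protein and at most 0.5% haemoglobin counts were kept. Scrublet in scanpy 1.11.5 marked 3 and 1 cells, which means that it did not work here, and doublets were left in.

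UMIs were summed over cells and divided by the total to give CPM. Poisson, Clopper-Pearson and conditional binomial intervals (scipy 1.17.1) at 95% cover counting error only, and no p-value was computed. The scripts were tested on simulated data. Thinning drew 5000 UMIs per cell, which left out 182 and 0 kept cells. The study regressed cell cycle scores out of its values, but the counts used here carry no such correction.

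The members, lists and comparisons were chosen with earlier results of these data known. Named were the members called between days, the 8 most abundant, the 10 most and 5 least tied to the high cells, and up to 3 with the largest change in each marker group. Other named genes, the depth windows, the order within high cells and the direct comparisons of groups were chosen after their values were seen. Alternatives were other cell filters, totals, weights, thresholds and cuts.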

Additional observations from a re-analysis of the deposited data

Results flagged for a closer look

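Barcodes left out only because they exceeded 26000 UMIs were in no comparison above and held members all the same. On day 4 411 such barcodes had a high share of 4.87% (3.0 to 7.42), against 7.70% of the kept cells, and a summed ratio of 1.03 to them. On day 6 317 such barcodes had a high share of 25.2% (20.5 to 30.4), against 18.1%, and a summed ratio of 1.07. The share was below that of all kept cells on day 4, where the intervals overlapped (kept cells 7.12 to 8.30). It was above that of all kept cells on day 6. Kept cells with 20000 to 26000 UMIs, the nearest in depth, had high shares of 7.72% (5.92 to 9.87) on day 4 and 34.2% (30.7 to 37.8) on day 6. Both were above the shares of the left-out barcodes, with overlapping intervals on day 4. Whether the left-out barcodes are large cells or more than 1 cell was not tested.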

How the results depend on the processing

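No paired analysis was possible because each day is 1 library, and for the same reason no replicate could be left out. G2e3 kept its call under all 9 alternatives tried, among which dropping the minimum level cannot change a ratio. The ratios of the 4 higher members, 1.501 to 1.58, lay near the limit. With totals free of mitochondrial and ribosomal protein genes they were 1.42 to 1.502 with 1 member called, against 11.7% of all genes, and after centring 1.36 to 1.44 with 0 called, against 8.79%. With the mean over cells they were 1.48 to 1.56 and with thinning 1.49 to 1.53, with 2 called in each, against 13.5% and 13.9%. The median log2 day ratio of the members was 0.17 with those totals and 0.11 after centring, and that of the other mitosis genes was 0.073 after centring. Of the latter 2 were lower, in place of 1, with those totals and after centring.

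The high share on day 4 and day 6 was 72.2% and 72.3% at a cut of 25, and 0.163% and 1.60% at 75. Above the 75th percentile of both days it was 19.7% and 30.2%, and on raw counts 6.06% and 16.8%. Without 9 members of a planned list it was 0.427% and 2.82%. The cut was not lowered for the members left, whose sums had a median of 19 UMIs on both days. The size of these 2 shares therefore cannot be set beside the main ones. Weighted to the depths of day 4, the day 6 share was 16.7%. The day 6 share was the higher in each of these.

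Summed ratios of marker groups moved beyond counting error in many alternatives, and only the Dppa5a group of day 4 turned, to 1.01 with totals free of mitochondrial and ribosomal protein genes. Its other ratios were 0.926 and 0.959 at lower and higher thresholds, 0.974 with cells over several thresholds, 0.981 without 9 members and 0.919 weighted for depth. For Dppa5a on day 6 they were 0.872 at lower thresholds, 0.946 without 9 members, 0.993 with the other totals and 0.836 weighted. For Fgf5 they were 1.08 with cells over several thresholds, 1.10 without 9 members, 1.06 with the other totals and 1.03 weighted. For Six6 they were 1.12 and 1.18 at lower and higher thresholds, 1.13 without 9 members, 1.11 with the other totals, 1.15 without the highest Scrublet scores and 1.11 weighted. For Wnt8b they were 1.06 at lower thresholds, 1.11 without 9 members, 1.08 with the other totals and 1.04 weighted. For Col4a1 they were 0.925 and 0.602 at lower and higher thresholds, 0.649 with cells over several, 0.629 without 9 members, 0.517 with the other totals and 0.532 without the highest Scrublet scores. The causes were not tested.

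The members tied to the high cells stayed within 1.5 times of 12 and 22 in all alternatives. TTTGAA stood in 41.2% of the member promoters when only the bases before the start were read, against 16.0% of all promoters.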
